A study of Homo with 4 samples.

Results

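The ZNF genes of human chromosome 19 were examined in H1299, a cell line of non-small cell lung cancer, after knockdown of IGF2BP3, an RNA-binding protein that reads N6-methyladenosine and stabilizes bound mRNAs. Of the 20263 genes in the count table, 230 were such genes. This chromosome carries the densest array of C2H2 zinc finger genes in the genome, most of them named ZNF and a number. Their proteins bind DNA through tandem zinc fingers, and most carry a KRAB domain that recruits the scaffold TRIM28 (KAP1) and, through it, the histone methyltransferase SETDB1 and heterochromatin proteins, which silence retrotransposons and other targets. The genes arose by repeated tandem duplication, so they lie in clusters of related copies and are mostly expressed at low levels.

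A gene was taken as a member when it lay on chromosome 19 and its position on GRCh38 matched a protein-coding RefSeq gene called ZNF, digits and at most 1 closing letter. A further 16 RefSeq ZNF genes of the chromosome had no unambiguous match and were not analysed here. RNA was sequenced from H1299 cells infected with lentivirus for a control hairpin (shCtrl, genotype WT in the labels, 2 libraries) or for a hairpin against IGF2BP3 (shIGF2BP3, 2 libraries), each labelled as a biological replicate. Which hairpin the shIGF2BP3 libraries carry is not given in the sources used here, and a difference between hairpins cannot be told apart from the spread between these libraries. Total counts ran from 29709686 to 34817513, and mitochondrially encoded genes took 9.11% and 13.43% of them in shCtrl and 11.42% and 17.02% in shIGF2BP3, a difference whose part in the results was not tested beyond another scaling. Of the epithelial markers, KRT8 and KRT18 were abundant (at least 330 and 613 FPKM), while KRT19, EPCAM and CDH1 had at most 12 counts in any library, and the mesenchymal gene VIM reached at least 1830 FPKM. CDH2, also mesenchymal, lay between 6.28 and 8.02 FPKM, the lung genes NKX2-1 and SFTPB and the endothelial gene PECAM1 had at most 9 counts, the fibroblast gene COL1A1 had 12 to 37 and the leukocyte gene PTPRC had 0. IGF2BP3 itself was at 41.1 and 32.9 CPM (counts scaled to the TMM-normalized library size) in shCtrl and 26.4 and 24.8 CPM in shIGF2BP3, so its groups did not overlap. Its log2 fold change was -0.53, a fall of less than 1.5-fold (edgeR's quasi-likelihood test, adjusted p = 0.471).

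The ZNF genes were weakly expressed. Of the 230 genes, 215 had at least 10 counts in at least 2 libraries and were tested, and none of these passed through libraries of 1 group only. The other 15 had at most 33 counts in any library, and 4 of them (ZNF208, ZNF560, ZNF534 and ZNF728) had 0 in all. The median of the mean level over the 4 libraries was 6.68 CPM for the tested ZNF genes, with quartiles at 3.89 and 13.2 CPM, against 21.2 CPM for all 13430 genes tested and 9.95 CPM for the ZNF genes of other chromosomes. On the FPKM scale, which corrects for transcript length, 161 of the 230 genes had a mean of at least 1 in shCtrl.

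The genes with the highest mean FPKM in shCtrl were ZNF428, ZNF146, ZNF585A, ZNF787 and ZNF574. ZNF428 was at 70.3 and 82.3 FPKM in shCtrl and at 76.0 and 78.2 FPKM in shIGF2BP3, so the groups overlapped. ZNF146 encodes a protein built almost only of zinc fingers, without a KRAB domain, and was at 43.7 and 33.7 FPKM in shCtrl against 57.7 and 59.0 FPKM in shIGF2BP3. Both shIGF2BP3 libraries of ZNF146 were above both shCtrl libraries. ZNF585A followed at 33.1 and 27.0 FPKM in shCtrl and 33.4 and 30.1 FPKM in shIGF2BP3. These are sums over transcripts, and 1 transcript of ZNF585A, ENST00000588354, held 31.1 and 26.5 FPKM of them in shCtrl. By mean CPM in shCtrl ZNF585A was at 28.6, below ZNF224 at 40.5, a gene that is not among these 5. ZNF787 was at 24.0 and 29.1 FPKM against 21.6 and 20.8 FPKM, and ZNF574 at 15.8 and 15.8 against 13.2 and 11.7 FPKM. For both of these the shIGF2BP3 libraries were the lower ones, and neither was called (edgeR's quasi-likelihood test, adjusted p = 0.586 and adjusted p = 0.512). In shCtrl the values of ZNF585A and ZNF787 overlapped and the lower library of ZNF146 lay close to the higher one of ZNF585A, while ZNF428 stood above and ZNF574 below the others in both libraries.

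More ZNF genes of chromosome 19 were higher than lower in shIGF2BP3 cells. A gene was called when it changed at least 1.5-fold and its p before adjustment did not exceed 0.05. By this rule 12 of the 215 were higher, or 5.58%, where 2.54% of all genes tested were called higher. By the same rule 2 were lower, or 0.93%, where 2.81% of all genes tested were called lower. The log2 fold change was above 0 for 131 of the 215 (60.9%, against 49.8% of all genes tested), and its median was 0.13, against -0.002 for all genes tested. Another 8 genes passed the limit on p but not that on the fold, all 8 with a positive log2 fold change. After Benjamini-Hochberg adjustment over the 13430 genes, 0 of the 215 and 0.0% of all genes passed a limit of 0.05 with edgeR's quasi-likelihood test. Before adjustment 22 of the 215 were within 0.05, a share close to that of all genes, 1417 of 13430 (10.6%). DESeq2 called 5 of the 215 (2.33%) at an adjusted p under 0.05, where it called 1.19% of all genes, and limma on the FPKM values called 0 of the ZNF genes and at most 6 of all genes. The counts and medians describe these libraries and were not tested as a set. In bulk RNA, fewer cells that express a gene and less of its RNA per cell cannot be told apart.

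The direction also showed library by library. Both shIGF2BP3 libraries lay above both shCtrl libraries for 65 of the 215 genes (30.2%), where 23.2% of all genes tested were placed so, and below both for 26 (12.1%), where the share of all genes was 23.6%. With each gene's mean over the 4 libraries subtracted, the median ZNF gene was at -0.007 and -0.072 log2 CPM in the shCtrl libraries and at 0.084 in each shIGF2BP3 library. For all genes tested the same medians lay between 0.004 and 0.011. The median SD within groups was 0.23 on the log2 scale for the ZNF genes and 0.18 for all genes. When scaled by library totals alone, the median of all genes moved to -0.081 and that of the ZNF genes to 0.045, and with limma on log2(FPKM + 1) without a filter the ZNF median turned to -0.008, against -0.026 for all genes.

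The family was set beside other groups of genes. Of 214 tested ZNF genes on other chromosomes, 7 were called higher and 7 lower (3.27% each, against 2.54% and 2.81% of all genes tested). Their median log2 fold change was 0.03, with 54.2% above 0. Among 102 other genes of chromosome 19 that lie within the ZNF clusters, 2 were higher and 3 lower (1.96% and 2.94%). Their median was 0.015. Among 738 other genes outside the clusters, 8 were higher and 18 lower (1.08% and 2.44%), with a median of -0.10 and 36.3% above 0. Of 2367 genes outside the family with a mean level between the quartiles of the ZNF genes, 2.45% were higher and 3.68% lower, and their median was -0.013. These differences between groups of genes were not tested.

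**Figure D1:**
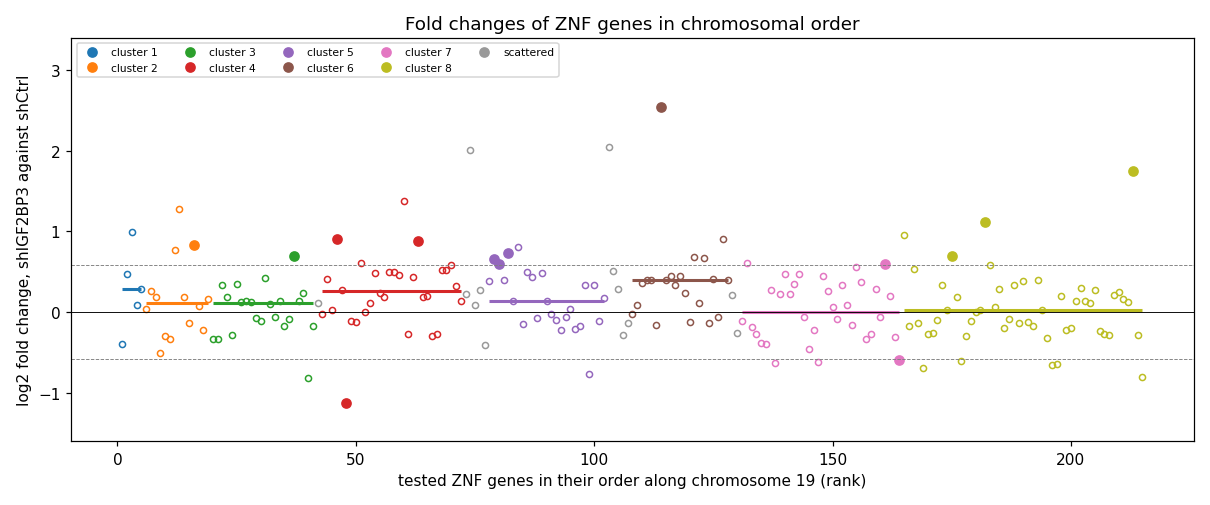
Log2 fold change of each of the 215 tested ZNF genes (y axis, shIGF2BP3 against shCtrl) in the order of their positions along chromosome 19 (x axis, rank). Filled points are the 14 called genes (1.5-fold, p within 0.05 before adjustment), open points the others, coloured bars the cluster medians and dashed lines a 1.5-fold change. The bars of clusters 4 and 6 stand at 0.25 and 0.39 and those of clusters 7 and 8 near 0.

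By position, the 230 genes fell into 8 clusters of at least 5 genes, separated by gaps of more than 1 Mb, and 15 scattered genes. Numbered from the short-arm end, and in Mb on GRCh38, the clusters span 2.8 to 2.9 (5 genes), 7.1 to 9.8 (15), 11.5 to 12.6 (23), 19.7 to 24.1 (35), 36.2 to 37.8 (25), 43.6 to 45.1 (22), 51.6 to 53.6 (37) and 55.5 to 58.5 (53). The first 4 are on the short arm and the others on the long arm. The cluster medians ran from 0.001 to 0.39, and differences between clusters were not tested. In clusters 4 and 6, singled out here after their values were seen, both shIGF2BP3 libraries were above both shCtrl libraries for 28 of 51 tested genes, while in the rest of the family this held for 37 of 164 (22.6%, against 23.2% of all genes). Both were below both shCtrl libraries for 23 of the 164 (14.0%, against 23.6% of all genes). The median log2 fold change of those 164 genes was 0.09.

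Cluster 6, at 43.6 to 45.1 Mb, had the highest median, 0.39, with 16 of its 21 tested genes above 0. Its median gene stood at -0.17 and -0.11 log2 CPM from its own mean in the shCtrl libraries and at 0.17 in both shIGF2BP3 libraries. The groups did not overlap in the upward direction for 13 of the 21 genes (61.9%, against 23.2% of all genes tested). In the downward direction this held for 1, ZNF112 (4.76%, against 23.6%). The summed level of the cluster was 392 and 444 CPM in shCtrl and 494 and 521 CPM in shIGF2BP3. The 13 genes were ZNF283, ZNF404, ZNF45, ZNF155, ZNF230, ZNF222, ZNF284, ZNF224, ZNF225, ZNF227, ZNF233, ZNF285 and ZNF180. On the FPKM scale 11 of the 13 were placed likewise, while ZNF225 overlapped (3.55 and 2.83 against 3.22 and 3.30) and ZNF285 was lower in shIGF2BP3 (0.952 and 0.845 against 0.726 and 0.699). Most of them differed by a similar small amount, with log2 fold changes of 0.36 in ZNF283, 0.40 in ZNF404, ZNF45 and ZNF230, 0.44 in ZNF222 and 0.34 in ZNF284. ZNF224, a KRAB zinc finger protein known to repress the aldolase A gene, was at 42.0 and 39.0 CPM in shCtrl and at 52.1 and 57.5 CPM in shIGF2BP3. Its log2 fold change was 0.44 (standard error 0.14), below the 1.5-fold limit, and the adjusted p = 0.471 was that of most called genes. In ZNF227 and ZNF180 the difference rested on 1 library: shCtrl replicate 1 was at 13.6 and 6.76 CPM, while shCtrl replicate 2 was at 30.2 and 18.0 CPM, close to the shIGF2BP3 libraries at 34.8 and 35.4 CPM and at 22.0 and 24.3 CPM. With each library left out in turn, the cluster median stayed between 0.307 and 0.355, and over the other settings its lowest value was 0.216.

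**Figure D2:**
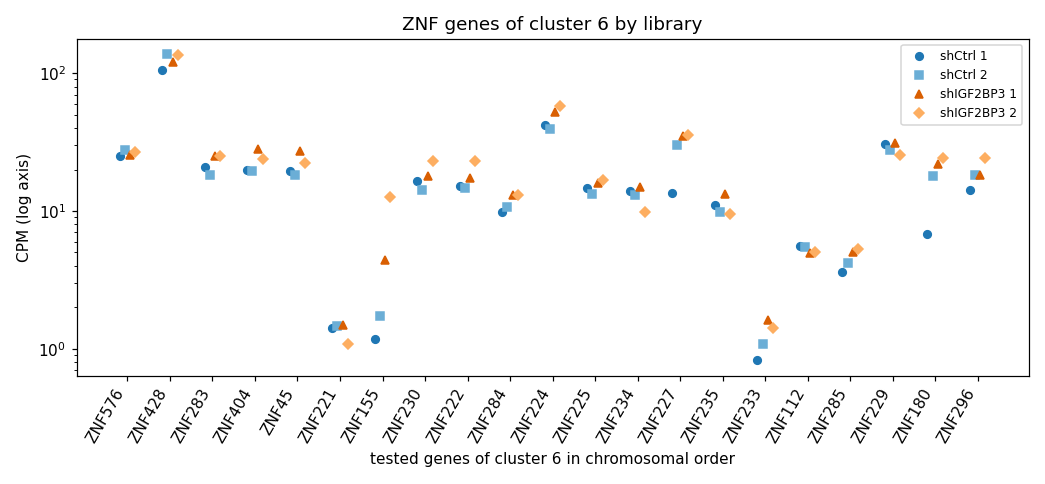
CPM on a log axis of the 21 tested genes of cluster 6 in chromosomal order, with 1 point per library (blue shCtrl, orange shIGF2BP3). For 13 genes both orange points stand above both blue points, and the largest gap is in ZNF155.

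The only gene of cluster 6 past both thresholds was ZNF155 (ENSG00000204920; chromosome 19 from 43967862 to 43998325 on the plus strand). It was at 1.17 and 1.74 CPM in shCtrl and at 4.404 and 12.6 CPM in shIGF2BP3. The shIGF2BP3 replicates thus differed from each other more than the groups did at their nearest libraries. The log2 fold change was 2.54 (standard error 0.56; edgeR's quasi-likelihood test, adjusted p = 0.471). It was between 1.60 and 3.12 with each library left out in turn, and the call held in each of these fits.

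Cluster 4, at 19.7 to 24.1 Mb next to the centromere, held 35 genes, of which 30 were tested. ZNF91 and ZNF93, which lie here, are known to repress the SVA and L1 retrotransposons. Of the 30 genes 22 were above 0, and the median was 0.25. The median gene stood at -0.11 and -0.17 log2 CPM from its own mean in shCtrl and at 0.07 and 0.27 in shIGF2BP3. The groups did not overlap in the upward direction for 15 of the 30 genes (against 23.2% of all genes tested). In the downward direction this held for 2 of the 30, ZNF682 and ZNF90 (against 23.6%). On the FPKM scale ZNF85, ZNF738, ZNF100, ZNF726 and ZNF254, which were separated upward by CPM, overlapped between the groups. ZNF85, for instance, was at 6.80 and 5.58 FPKM in shCtrl and at 7.35 and 6.24 FPKM in shIGF2BP3. ZNF430 was at 1.21 FPKM in both shCtrl replicate 1 and shIGF2BP3 replicate 2. ZNF14, ZNF253, ZNF431, ZNF708, ZNF493, ZNF43, ZNF91, ZNF675 and ZNF681 were separated upward on both scales. The summed level of the cluster was 174.5 CPM in each shCtrl library and 205 and 235 CPM in shIGF2BP3. With each library left out in turn the median lay between 0.170 (without shCtrl replicate 2) and 0.432 (without shIGF2BP3 replicate 1), and over the other settings its lowest value was 0.089.

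Within cluster 4, ZNF253 (ENSG00000256771) and ZNF43 (ENSG00000198521) were called higher. ZNF253 was at 3.405 and 2.69 CPM in shCtrl and at 4.84 and 6.57 CPM in shIGF2BP3, a log2 fold change of 0.90 (standard error 0.27). With limma on FPKM, its log2 fold change was 0.22 to 0.37 and the call was lost. ZNF43 was at 9.10 and 16.5 CPM against 20.9 and 26.1 CPM, a log2 fold change of 0.88 (standard error 0.32). The shCtrl replicates of ZNF43 were thus further apart than shCtrl replicate 2 was from shIGF2BP3 replicate 1. ZNF682 (ENSG00000197124) went the other way, from 5.43 and 2.48 CPM to 2.09 and 1.52 CPM, with a log2 fold change of -1.13 (standard error 0.44). In ZNF682 the shCtrl replicates again differed more than the nearest libraries of the groups, and its log2 fold change was -0.45 without shCtrl replicate 1. On the FPKM scale the groups of ZNF682 overlapped, at 2.98 and 2.30 against 2.44 and 1.61, and limma gave log2 fold changes of -0.38 to -0.27 without a call. ZNF91 was at 5.48 and 5.67 CPM in shCtrl and at 7.24 and 8.75 CPM in shIGF2BP3, a log2 fold change of 0.52 (standard error 0.21), and was not called although its groups did not overlap. ZNF93 overlapped between the groups, at 7.37 and 5.11 CPM against 6.63 and 8.42 CPM. ZNF431 and ZNF675, a gene whose product is known to bind TRAF6, were higher by less than the 1.5-fold limit, with log2 fold changes of 0.49 and 0.52.

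Elsewhere the separation was smaller or rested on fewer libraries. In cluster 5, at 36.2 to 37.8 Mb, 3 of 25 genes were called higher (against 2.54% of all genes tested) and 15 were above 0. Its median gene stood at -0.25 in shCtrl replicate 2 but at 0.00 in shCtrl replicate 1, against 0.10 in both shIGF2BP3 libraries, and its median log2 fold change of 0.14 became 0.01 without shCtrl replicate 2 and 0.40 without shCtrl replicate 1. In clusters 2 and 3 the medians were 0.11 and 0.11, with 9 of 14 and 12 of 22 genes above 0. In each of them 1 gene was called higher (7.14% and 4.55%). Both medians were negative with limma on log2(FPKM + 1), at -0.146 and -0.061, a fit in which the median of all genes was -0.07 and that of the ZNF genes 0.061. In cluster 7, 17 of 34 genes were above 0 and 17 below, with a median of 0.001 and 1 gene (2.94%) called in each direction. In cluster 8, the largest, 27 of 51 were above 0, and 3 genes (5.88%) were called higher and 0 lower. Its median was 0.02, and -0.170 by that limma fit. The 5 genes of cluster 1 had a median of 0.29 with 0 called, and its library medians ran from -0.19 in shCtrl replicate 2 to 0.43 in shIGF2BP3 replicate 2. Its smallest p belonged to ZNF77, at 9.10 and 8.38 CPM in shCtrl and 10.98 and 10.4 CPM in shIGF2BP3 (edgeR's quasi-likelihood test, adjusted p = 0.562).

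Among the 13 tested scattered genes, 9 were above 0 and 0 were called. ZNF780B had the smallest p of these, at 13.2 and 11.8 CPM in shCtrl against 18.4 and 17.1 CPM in shIGF2BP3, a log2 fold change of 0.51. In some genes 1 library stood apart from the rest. ZNF302 was at 8.46, 13.7 and 11.4 CPM in both shCtrl libraries and shIGF2BP3 replicate 2, but at 77.6 CPM in shIGF2BP3 replicate 1. ZNF546 was at 2.47, 0.56 and 0.36 CPM in the same libraries and at 12.2 CPM in shIGF2BP3 replicate 1. Neither was called (edgeR's quasi-likelihood test, adjusted p = 0.481 and adjusted p = 0.597), although their log2 fold changes were 2.01 and 2.05. Within the clusters, ZNF324 was at 6.52, 7.26 and 7.01 CPM and at 0.762 CPM in shIGF2BP3 replicate 2, and ZNF490 at 2.66, 2.01 and 2.58 CPM and at 0 in that library.

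**Figure D3:**
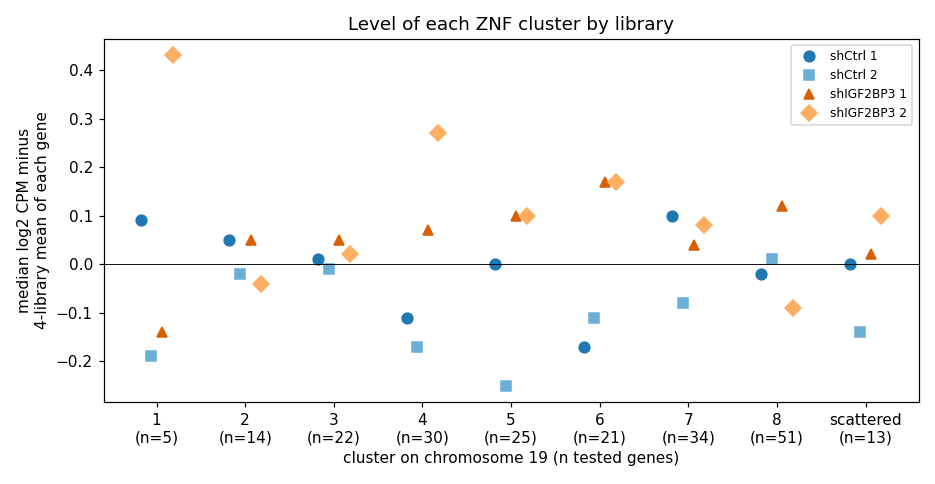
Median over the tested genes of each cluster of log2 CPM minus the gene's mean over the 4 libraries (y axis), for each library (symbols), with clusters in chromosomal order and n the tested genes. Both shIGF2BP3 points stand above both shCtrl points in clusters 3 to 6 and in the scattered genes, with the widest gap in cluster 6.

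The gene with the smallest p of the family was ZNF584 (ENSG00000171574), in cluster 8 from 58408625 to 58418327 on the plus strand. It was at 3.62 and 4.16 CPM in shCtrl and at 14.3 and 11.8 CPM in shIGF2BP3, so the groups lay far apart relative to their replicates. The log2 fold change was 1.75 (standard error 0.22; edgeR's quasi-likelihood test, adjusted p = 0.122), and the other 13 called genes had an adjusted p of 0.471 or 0.472. DESeq2 gave ZNF584 an adjusted p = 4.6e-07, and over the other settings with all 4 libraries the value ran up to 0.486. On the FPKM scale it was at 2.46 and 2.53 in shCtrl and at 5.83 and 4.28 in shIGF2BP3.

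ZNF304 (ENSG00000131845; 57351307 to 57359898, plus strand), which encodes a KRAB protein, was also in cluster 8. It was at 3.27 and 4.28 CPM in shCtrl and at 7.71 and 8.57 CPM in shIGF2BP3. The log2 fold change was 1.11 (standard error 0.23). In the same cluster ZNF471 was at 2.37 and 1.77 CPM against 3.45 and 3.23 CPM, a log2 fold change of 0.69 (standard error 0.26). ZNF274, which is known to recruit SETDB1 to the 3′ parts of ZNF genes, was at 34.8 and 39.0 CPM against 39.4 and 45.7 CPM, a log2 fold change of 0.21 (edgeR's quasi-likelihood test, adjusted p = 0.621).

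In cluster 5 the called genes were ZNF146, ZNF529 and ZNF566. ZNF146 (ENSG00000167635) was at 163 and 142 CPM in shCtrl and at 227 and 256 CPM in shIGF2BP3, a log2 fold change of 0.66 (standard error 0.15). ZNF529 (ENSG00000186020) was at 18.7 and 18.1 CPM against 30.2 and 30.9 CPM, with replicates of each group within 1 CPM of each other and a log2 fold change of 0.73 (standard error 0.15). ZNF566 was at 18.4 and 13.6 CPM against 22.1 and 26.6 CPM, a log2 fold change of 0.60 (standard error 0.22). ZNF146 overlaps ZNF565 and ZNF529 overlaps ZNF382 on the opposite strand, and since the counting is not stated to use strand, reads of these pairs cannot be told apart.

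Cluster 2 held ZNF121 (ENSG00000197961), whose product is known to interact with MYC. It was at 30.7 and 33.6 CPM in shCtrl and at 48.5 and 65.5 CPM in shIGF2BP3, a log2 fold change of 0.83 (standard error 0.19). ZNF443, in cluster 3, was at 5.93 and 6.26 CPM against 8.61 and 11.2 CPM, a log2 fold change of 0.70 (standard error 0.22), and overlaps 2 unnamed genes on its own strand. In cluster 7, ZNF765 was at 3.14 and 3.07 CPM against 5.07 and 4.28 CPM, a log2 fold change of 0.59 (standard error 0.23), a call kept in 4 of 9 alternatives with all libraries. The imprinted gene ZNF331, at the end of cluster 7 away from the centromere, was lower, at 11.2 and 14.7 CPM in shCtrl and 9.07 and 7.99 CPM in shIGF2BP3, with a log2 fold change of -0.60 (standard error 0.22).

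**Figure D4:**
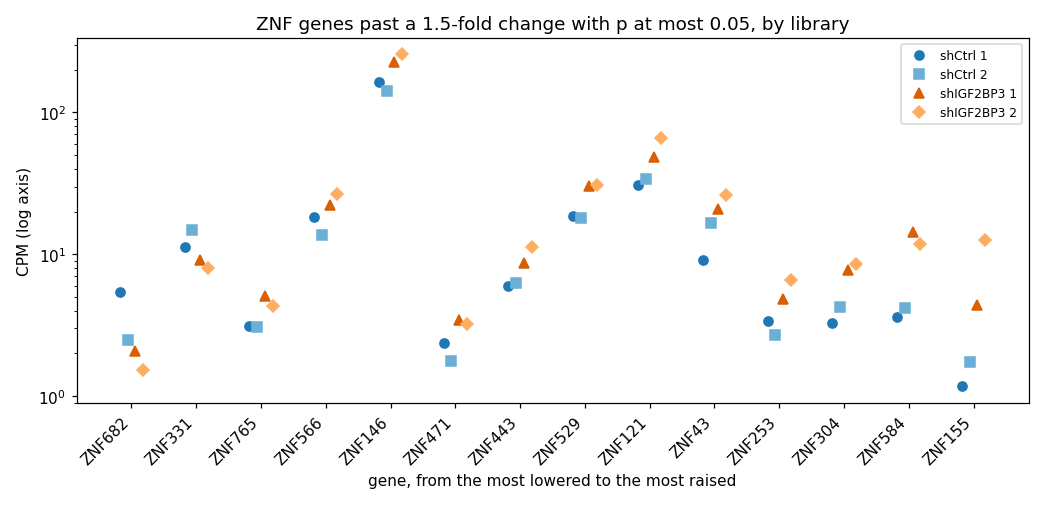
CPM on a log axis of the 14 called ZNF genes (1.5-fold, p within 0.05 before adjustment), ordered by fold change, with 1 point per library (blue shCtrl, orange shIGF2BP3). ZNF682 and ZNF331 are the 2 lower genes, and ZNF584 and ZNF155 show the widest upward gaps.

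These calls differed in how far they rested on 1 library or on the scale. With all libraries, the call was kept in each of 11 alternatives for ZNF584, ZNF155, ZNF43 and ZNF331. It was lost with limma in all 3 FPKM fits for ZNF529, at log2 fold changes of 0.46 to 0.54, and in 2 of them for ZNF121, ZNF443 and ZNF304, at 0.58, 0.44 and 0.40. ZNF471 kept it in 5 of 9. For ZNF584, ZNF155, ZNF304, ZNF529 and ZNF121 the call held with each library left out in turn, with log2 fold changes of 1.61 to 1.88, 1.60 to 3.12, 0.93 to 1.31, 0.71 to 0.76 and 0.59 to 1.03. The calls of ZNF443, ZNF253, ZNF146, ZNF566, ZNF765, ZNF331 and ZNF471 were lost without shCtrl replicate 2 and without shIGF2BP3 replicate 2. Those of ZNF443, ZNF682, ZNF43 and ZNF765 were lost without shCtrl replicate 1, those of ZNF682 and ZNF43 without shIGF2BP3 replicate 2, and those of ZNF765, ZNF331 and ZNF471 without shIGF2BP3 replicate 1. Over these fits the log2 fold change ran from 0.50 to 0.88 in ZNF443, 0.67 to 1.12 in ZNF253, 0.57 to 0.77 in ZNF146, 0.40 to 0.84 in ZNF566, 0.47 to 0.71 in ZNF765, 0.50 to 0.92 in ZNF471, 0.51 to 1.37 in ZNF43, -0.78 to -0.39 in ZNF331 and -1.58 to -0.45 in ZNF682. The 5 genes that DESeq2 called were ZNF584, ZNF155 (adjusted p = 0.00293), ZNF529 (0.00822), ZNF146 (0.0125) and ZNF121 (0.028), and by the other settings with all 4 libraries the adjusted p of each was above 0.05 and reached up to 0.6 by limma or edgeR. The family's counts depended on single libraries too. Without shIGF2BP3 replicate 1, 20 genes were called higher (9.30%, against 4.99% of all genes in that fit) and 12 lower (5.58%, against 6.54%). Without shIGF2BP3 replicate 2, 10 were higher (4.65%, against 1.56%) and 6 lower (2.79%, against 2.82%). The family's median was 0.148 without shCtrl replicate 1 and 0.067 without shCtrl replicate 2.

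The deposited counts are per transcript, and for several of these genes the transcript that carried the counts differed between libraries. In ZNF304 all counts of shCtrl replicate 2 and 106 of the 123 in shCtrl replicate 1 stood on ENST00000443917, which ends at 57358780. In shIGF2BP3 that transcript had 0 counts, and ENST00000391705, which ends at 57359898, carried 261 of 266 and 236 of 236. The gene's FPKM was 0.855 and 1.04 in shCtrl and 1.55 and 1.58 in shIGF2BP3. In ZNF43, ENST00000357491 led with 238 and 532 counts in shCtrl and 415 in shIGF2BP3 replicate 2, but had 0 in shIGF2BP3 replicate 1, where ENST00000354959 and ENST00000594012 held 428 and 274. In ZNF584 the transcript ENST00000306910 had 73 and 60 counts in shCtrl and 237 and 315 in shIGF2BP3, while ENST00000593920 had 238 counts in shIGF2BP3 replicate 1, 9 and 2 in shCtrl and 0 in shIGF2BP3 replicate 2. ZNF155 kept ENST00000270014 as its leading transcript in every library, at 35, 28, 97 and 347 counts. In ZNF331, called lower, the leading transcript ENST00000253144 overlapped between the groups, at 255 and 334 counts in shCtrl and 261 and 197 in shIGF2BP3. Its transcript ENST00000411977 had 139 and 52 counts in shCtrl and 24 and 19 in shIGF2BP3, and ENST00000511154 had 0 and 94 against 21 and 0.

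Such differences were common in the family. Of 206 tested ZNF genes with more than 1 transcript, 108 (52.4%) had the same leading transcript in all 4 libraries, against 65.2% of all such genes tested. For 5 (2.43%, against 2.99% of all such genes) both libraries of a group shared a leading transcript that differed from that of the other group: ZNF304, ZNF414, ZNF571, ZNF582 and ZNF607. The part of these assignments in the summed counts was not tested.

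**Figure D5:**
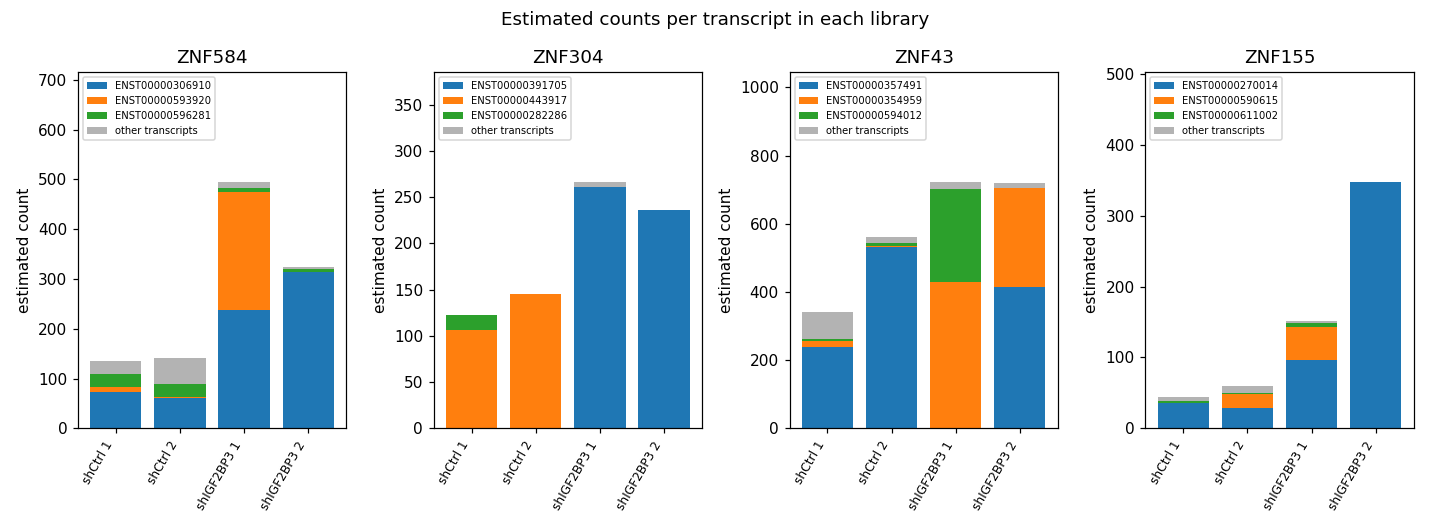
Estimated counts per library (bars, linear axis from 0) of ZNF584, ZNF304, ZNF43 and ZNF155, split by the 3 transcripts with most counts and the sum of the others. The leading transcript of ZNF304 differs between shCtrl and shIGF2BP3, while that of ZNF155 is the same in all 4 libraries.

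The fold change was set beside properties that the choice of genes did not use. Across the 215 genes, which share the same 4 libraries, Spearman's rho of the log2 fold change was 0.03 with gene length, 0.08 with the number of transcripts and 0.18 with mean CPM. The median log2 fold change was 0.18 for the 144 genes at 5 CPM or more, of which 96 were above 0, and -0.06 for the 71 genes below 5 CPM, of which 35 were above 0, a split chosen after the values were seen. It was 0.14 for the 116 genes on the plus strand and 0.12 for the 99 on the minus strand. Among 194 pairs of neighbouring genes within a cluster, rho between neighbours was 0.14 and 112 pairs (57.7%) had the same sign, and among 839 neighbouring pairs of other chromosome 19 genes rho was 0.07 and 474 pairs (56.5%) had the same sign. An overlap with another gene on the same strand was found for 50 of the 215 (23.3%), and 1 of the 14 called genes, ZNF443, had one. Because neighbouring ZNF genes are close copies, reads can be shared between them, and levels of single genes are uncertain to that extent.

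The partners of KRAB zinc finger proteins lay on both sides of 0. Of 29 genes of the silencing machinery on a list, all 29 were tested, 0 were called higher and 1 lower (3.45%, against 2.81% of all genes tested), and the median log2 fold change was 0.11 with 17 above 0, and -0.080 with limma on log2(FPKM + 1), close to the -0.07 of all genes in that fit. TRIM28, the KRAB corepressor, was at 636 and 732 CPM in shCtrl and at 594 and 598 CPM in shIGF2BP3, a log2 fold change of -0.20 (edgeR's quasi-likelihood test, adjusted p = 0.597). SETDB1, which writes H3K9 trimethylation, was at 38.2 and 42.9 CPM against 43.1 and 42.0 CPM, so its groups overlapped. The called gene was CHD3, a remodeller subunit of the NuRD complex that binds TRIM28, at 65.2 and 90.7 CPM against 52.1 and 40.2 CPM, with a log2 fold change of -0.76 (standard error 0.22). Below the 1.5-fold limit, the maintenance DNA methyltransferase DNMT1 had a log2 fold change of -0.40, the histone deacetylase HDAC2 of 0.40 and the H3K9 methyltransferase EHMT1 of 0.55, each within 0.05 before adjustment and at an adjusted p of at least 0.471. On the FPKM scale HDAC2 overlapped between the groups, at 48.4 and 16.5 in shCtrl and 31.0 and 62.9 in shIGF2BP3.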

How the data were processed

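RNA-seq was analysed for 2 shCtrl and 2 shIGF2BP3 libraries of H1299 cells. The authors deposited estimated counts per Ensembl transcript, as whole numbers without normalization, and FPKM values per transcript. The submitters' processing notes name CASAVA, Trimmomatic, HISAT2, bedtools and FastQC with the build GRCh38, while the counter is not given in the sources used here. The count columns number the shIGF2BP3 libraries otherwise than the labels do, and each was matched through the FPKM file of the same library name.

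Counts and FPKM of 95139 transcripts were summed to 20263 genes. Symbols came from RefSeq genes of GRCh38.p14 by mutual best overlap (shared part at least 0.5 of the joint length, lead 0.2), which named 18218 genes. Genes with at least 10 counts in at least 2 libraries (13430) entered the quasi-likelihood test of edgeR 4.0.16 under R 4.3.3 (TMM factors, estimateDisp, glmQLFit, glmQLFTest, prior count 0.125, Benjamini-Hochberg adjustment). CPM are counts scaled to the TMM-normalized library size. Total counts were 29709686 to 34817513 per library, and the common biological coefficient of variation came to 22.8%. Replicates differed by more than sampling noise (chi-square over degrees of freedom 78.6 in shCtrl and 77.3 in shIGF2BP3), and p-values measure only the spread between these libraries. The fit was tested on simulated data.

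Genes were called at a 1.5-fold change and a p within 0.05 before adjustment, following the study's methods. Genes named were those called, the 5 with the highest FPKM in shCtrl, the smallest p of each cluster, ZNF274, ZNF91, ZNF93, TRIM28, SETDB1 and silencing genes within that limit on p, and IGF2BP3. Others were named after their values were seen. The members and lists were chosen with earlier results of these data known. Alternatives were DESeq2 1.42.0, limma 3.58.1 on log2(FPKM + 1) and log2(FPKM + 0.1) (FPKM of 1 or more in 2 libraries), other scalings, filters and member rules, the replicate block and each library left out. Sequence features of the proteins were not analysed here.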

Additional observations from a re-analysis of the deposited data

How the results depend on the processing

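Over 28 named genes, 344 alternative values kept direction and side of the threshold, 54 were no longer called, 7 became called and 11 reversed, and of the summary values 213 kept within the replicate spread or 1.5 times and 79 moved. The restriction to genes at 5 CPM or more was added after seeing the data. Where no cause is given, it was not tested. Values are median log2 fold changes unless counts are named.

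Scaling by library totals shifted the median of all genes to -0.081 and gave 0.045 for the ZNF genes, 0.035, 0.006 and 0.307 for clusters 2, 3 and 6 and 0.030 for the silencing genes. Calls were then 28.6% higher over all genes, against 47.5% with TMM, and 80.0% against 85.7% within the family. Totals without mitochondrial genes gave 0.095, 0.072 (cluster 3), 0.365 (cluster 6) and 0.079 (silencing genes), with 39.3% of all calls higher. With limma on log2(FPKM + 1) the median of all genes was -0.07, and 27.2% of all calls were higher. By that fit 5 ZNF genes were higher and 1 lower (3.01% and 0.602%, against 1.14% and 3.06% of all genes). The family was at 0.061, and clusters 2, 3, 4, 6, 7 and 8 were at -0.146, -0.061, 0.118, 0.259, 0.108 and -0.170. The scattered genes were at -0.043 and the silencing genes at -0.080. With log2(FPKM + 0.1), where that of all genes was -0.081, the family was at 0.076, clusters 2, 3, 6, 7 and 8 at -0.197, -0.075, 0.298, 0.176 and -0.228, the scattered genes at -0.058 and the silencing genes at -0.102, with 29.4% of all calls higher. Without a filter limma put all genes at -0.026, with 96 of them higher and 224 lower (0.607% and 1.42%). It called 4 ZNF genes higher and 1 lower (1.77% and 0.442%). The family was then at -0.008, and clusters 2, 3, 4 and 6 were at -0.084, -0.047, 0.089 and 0.216. The scattered genes were at 0.007 and the silencing genes at -0.080. DESeq2 called 5 ZNF genes at an adjusted p under 0.05 (2.33%, against 1.19% of all genes).

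Genes without a same-strand overlap gave 0.037 in cluster 2 and -0.072 in cluster 3, and symbols of digits alone 0.107 in the scattered genes. With a shared part of 0.8, or at 5 CPM or more, 1 gene was lower, and the family at 5 CPM or more was at 0.181. At a gap of 0.5 Mb the first 14 genes of cluster 8 were at -0.121.

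With the replicate number as a block, 14 ZNF genes were higher and 3 lower (6.51% and 1.40%, against 2.62% and 3.12% of all genes), cluster 3 was at 0.030 and the silencing genes at 0.097. Deviations of libraries with the same replicate number in the labels correlated at 0.0138. With 2 libraries per group, this cannot show whether such libraries shared a preparation.

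With 1 library left out, 10 to 20 ZNF genes were higher, 1 to 12 lower and 0 to 4 passed the adjusted limit (4 being 1.86%, against 0.745% of all genes), the highest counts each without shIGF2BP3 replicate 1. The family ran from 0.067 to 0.150, clusters 1 to 8 from 0.026 to 0.261, 0.025 to 0.175, -0.008 to 0.093, 0.170 to 0.432, 0.011 to 0.400, 0.307 to 0.355, -0.096 to 0.097 and -0.106 to 0.063, and the scattered genes from 0.160 to 0.215. Of the silencing genes 0 to 2 were higher and 0 to 2 lower, with medians of 0.070 to 0.148.

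ZNF428 reversed to -0.10 without shCtrl replicate 1 and -0.01 without shIGF2BP3 replicate 2, the highest value of these fits being 0.28 (without shCtrl replicate 2). ZNF585A reversed to 0.08, 0.09 and 0.08 with limma at the pseudocounts 1 and 0.1 and without a filter, and to 0.20 without shCtrl replicate 1, against -0.35 without shCtrl replicate 2. SETDB1 reversed to -0.01 with library totals, to -0.16, -0.17 and -0.16 in the same limma fits, and to -0.01 without shCtrl replicate 1. The median level of the tested ZNF genes was 6.68 CPM, against 21.2 CPM for all genes tested. This low level, the 71 genes below 5 CPM and the 2 libraries per group limit what can be detected in single genes.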
